A study of Mus musculus with 54 samples.

Results

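Rag1, Rag2, Dntt and Lig4 encode the recombinase, the template-free polymerase and the ligase of V(D)J recombination, and every deposited row whose nearest gene was one of these 4 was collected. They held 10 of 4983 regions in the table of Wt and E2A-KO accessibility and 8 of 3764 in the tables of histone marks. They held 2 of 1172 in the tables of Ebf1-bound regions and 24 of 65093 accessible regions of the progenitor B cell line 230-238. They also held 11 of 27261 Fli1 peaks, none of 5741 Ikzf1 peaks and 24 of 69898 chromatin interactions, counted where an end overlapped one of the 24 accessible regions.

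V(D)J recombination joins the gene segments of antigen receptors in developing lymphocytes. Rag1 and Rag2 form the endonuclease that cuts beside the segments, Dntt (terminal deoxynucleotidyl transferase) adds bases without a template at the junctions, and Lig4 (DNA ligase IV) seals the ends as the ligase of non-homologous end joining. Rag1 and Rag2 are neighbouring genes transcribed towards each other, and in B-cell progenitors their transcription is known to depend on distal enhancers and on factors such as E2A (encoded by Tcf3), Ebf1, Pax5 and Foxo1. Dntt is a lymphoid progenitor gene, whereas Lig4 is expressed in most cells for general repair.

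The series measured chromatin in C57BL6/J fetal liver cells labelled ProB and expanded on OP9 stroma in the presence of interleukin-7 and the ligands of KIT and FLT3. Groups used here were Wt, Ebf1-KO (lacking the B-lineage factor Ebf1), E2A-KO, and Ebf1-KO carrying the pMiG-Ebf1ER vector, sampled at 0, 6, 24 and 72 h of 4OHT, the tamoxifen metabolite that activates the fusion protein. The clonal origin of 230-238, an Abelson-transformed line, is not given in the labels, and Ebf1 and Pax5 binding came from that line, not from the fetal liver cells. No 4OHT-treated group without Ebf1ER is labelled. Values are tags per 10000000 tags of a library, called tags below, over a region of build mm10, with 95% Poisson intervals in parentheses. Each group was 1 column, pooled or from 1 library, so no difference was tested across replicates, and intervals cover counting error only. In bulk chromatin, fewer cells with an open site and less signal in each cell cannot be told apart. A difference is called at 2-fold on log2(value + 1).

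Library totals ran from 24557525 tags (H3K27ac, Wt) to 196071042 (H3K4me3, Ebf1-KO). The authors had kept only regions around Wt-enriched genes, per the file names, so lower signal in a knockout is not independent evidence about these genes. All 4983 regions also carried coordinates of the 230-238 accessible regions within 1 bp, so a site open in fetal liver only could not be in the tables. In 230-238, start sites of 6 of 6 matched B progenitor marker genes were accessible within 1 kb, against 3 of 8 for T lineage, 2 of 5 for myeloid, 2 of 3 for erythroid and 0 of 3 for stroma markers, where 39.4% of all 27025 RefSeq genes had one. Chromatin at Tcf3 does not check the E2A deletion, and the region 466 bp upstream of its start held 40.7 tags in E2A-KO and 52.4 in Wt.

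The promoters of Rag1, Rag2 and Lig4 are shown because the first and last lay inside a region of the accessibility and histone tables and overlapped a Fli1 peak, while that of Rag2 did not. They are RefSeq sequences (GRCm38.p6) of the 250 bases up to the start site, 5′ to 3′ in the direction of transcription. Capitals mark the E-box letters CANNTG, which E proteins such as E2A can bind, and the ETS letters CCGGAA or AGGAAG on either strand, which ETS factors such as Fli1 can bind.
Rag1 promoter, chr2:101649533-101649782, minus strand: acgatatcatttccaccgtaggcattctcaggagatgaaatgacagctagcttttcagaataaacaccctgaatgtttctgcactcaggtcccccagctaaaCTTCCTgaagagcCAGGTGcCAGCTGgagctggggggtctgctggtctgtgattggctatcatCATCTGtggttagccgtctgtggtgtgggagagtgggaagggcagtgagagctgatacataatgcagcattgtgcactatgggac
Rag2 promoter, chr2:101624462-101624711, plus strand: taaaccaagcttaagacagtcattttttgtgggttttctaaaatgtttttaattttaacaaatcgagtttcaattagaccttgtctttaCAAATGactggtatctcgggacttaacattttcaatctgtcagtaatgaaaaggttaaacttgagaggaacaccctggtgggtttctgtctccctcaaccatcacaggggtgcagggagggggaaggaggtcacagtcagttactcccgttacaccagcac
Lig4 promoter, chr8:9976312-9976561, minus strand: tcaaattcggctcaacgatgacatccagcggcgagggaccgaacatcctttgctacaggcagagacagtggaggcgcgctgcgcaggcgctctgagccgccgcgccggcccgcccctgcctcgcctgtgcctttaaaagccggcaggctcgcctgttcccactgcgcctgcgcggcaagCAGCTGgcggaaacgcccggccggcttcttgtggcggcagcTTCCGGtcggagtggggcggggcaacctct
The Rag1 window held 3 E-boxes, among them CAGGTG 135 bases before the start site, and AGGAAG on the opposite strand 148 bases before it. The Lig4 window shown held 1 E-box, 71 bases before the start, and CCGGAA on the opposite strand 30 bases before it. A second RefSeq start of Lig4, at chr8:9977680, was covered by an accessible region in 230-238 but by no fetal liver region or Fli1 peak. The window of that second start, not shown, held 1 E-box, and 1 CCGGAA and 2 AGGAAG on the opposite strand. The Rag2 window held 1 E-box and no ETS letters. Of 32851 RefSeq promoter windows of this length, 66.2% held CANNTG, 17.2% CAGGTG, 12.0% CCGGAA and 29.5% AGGAAG, on either strand. The 2 ETS matches in the Rag1 and Lig4 windows shown lay 27.5 and 14.5 bp from the centres of the Fli1 peaks over those promoters. A match is a description of letters, not a binding site. The window at Dntt (chr19:41029025-41029274) held 3 E-boxes and no ETS letters, and no accessible region covered the Dntt start site in either cell source.

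In E2A-KO cells, accessibility was lower at the Rag1 promoter, at 1 of 2 further regions upstream of Rag1, at 1 of 2 upstream of Rag2, at 2 of 3 Dntt regions and in the Lig4 intron. The Lig4 promoter differed like the typical region. Of the 10 member regions 6 were at least 2-fold lower in E2A-KO and 0 higher, where 37.9% of all regions were lower and 0.983% higher. The median log2 ratio of all regions was -0.76 and 0.02 after TMM scaling, which assumes that most regions do not differ. Under TMM 3 member regions stayed at least 2-fold lower, one each near Rag1, Rag2 and in Lig4, where 15.1% of all regions were lower. By the strongest region of each gene, 8 of 9 measured B progenitor markers were also lower (7 under TMM). Their median log2 ratio was -2.46, against -1.57 for the 4 members, 3 of them lower (1 under TMM). Over all 1787 genes by strongest region the median was -0.83, and 40.3% were lower (272 genes under TMM). T lineage and myeloid markers numbered 1 and 3 in the table, none of them called, and erythroid and stroma markers had no region. The part of a different mix of cells in the member ratios was not tested. Nor was that of processing steps named for only 1 of the 2 columns.

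At the recombinase genes, the region 26002 bp upstream of Rag2 (chr2:101598305-101599187), in intron 2 of NM_026592 (the neighbouring gene Iftap), held 58.0 (54.3–61.9) tags in Wt and 6.76 (5.13–8.74) in E2A-KO. That was 8.58-fold (6.57–11.4) lower in E2A-KO, and the log2 ratio of -2.93 was lower than at all but 3.11% of regions. Its neighbour 27344 bp upstream (chr2:101597320-101597489) held 5.92 and 2.68 tags, a log2 ratio of -0.91 that is close to the median. The Rag1 promoter region (chr2:101649360-101649875) held 32.4 (29.6–35.4) tags in Wt and 11.1 (8.96–13.5) in E2A-KO, 2.92-fold (2.34–3.68) lower, and it was not called under TMM (log2 -0.61). Upstream of Rag1, an intergenic region at 1159 bp (chr2:101650564-101650818) held 9.56 (8.08–11.2) and 0.93 (0.40–1.84) tags, 10.2-fold (5.07–24.2) lower. The intergenic region 3514 bp upstream of Rag1 held 4.88 and 2.68 tags, at the level of the typical region relative to the median (log2 0.08). The 2 strongest regions of the locus by Wt tags were the Rag2 element and the Rag1 promoter. Their folds differed beyond counting error, with intervals that did not overlap, but variation between replicates was not measured.

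At Dntt, the intron 1 region 1943 bp after the start (chr19:41030723-41031714) held 15.2 (13.3–17.2) tags in Wt and 4.08 (2.84–5.68) in E2A-KO, 3.71-fold (2.59–5.46) lower. The intergenic region 6853 bp upstream (chr19:41022169-41022676) held 11.7 (10.1–13.6) and 2.80 (1.79–4.16), 4.18-fold (2.72–6.70) lower. Both calls were lost under TMM, at log2 -0.88 and -0.98. A short region 3208 bp upstream held 1.37 (0.85–2.09) and 1.28 (0.64–2.29) tags, which do not differ beyond counting error.

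At Lig4, the promoter region (chr8:9975972-9976689) held 90.7 (86.0–95.5) tags in Wt and 54.0 (49.2–59.1) in E2A-KO. Its log2 ratio of -0.74 lay at the median of all regions, and its sign turned to 0.15 under TMM. The intron 1 region 843 bp after the start (chr8:9975351-9975610) held 28.9 (26.2–31.7) tags in Wt and 1.63 (0.89–2.74) in E2A-KO. This was 17.7-fold (10.4–32.6) lower, the lowest ratio of the 10 (log2 -3.51), and only 0.983% of regions lay below it. The folds of the 2 neighbouring regions of this gene differed beyond counting error, with intervals that did not overlap. Here too, variation between replicates was not measured. Per kb of region, Wt accessibility was highest at the Lig4 promoter (126) and its intron (111), then at the Rag2 element (65.7) and the Rag1 promoter (62.8), whose order is within counting error, and it ran from 6.85 to 23 at the 3 Dntt regions.

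**Figure D1:**
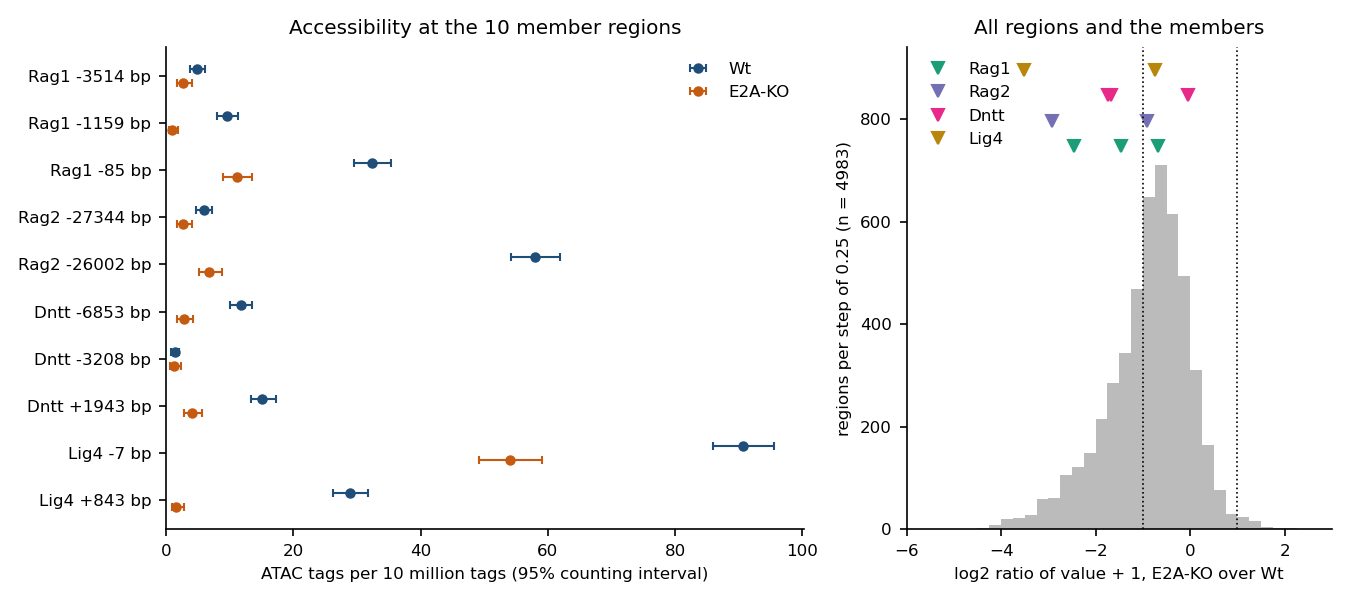
Left, ATAC tags per 10000000 with 95% counting intervals in Wt (blue) and E2A-KO (orange) at the 10 member regions, named by distance to the start site. Right, log2 ratios of all 4983 regions (grey steps of 0.25) and of the members (triangles), with dotted lines at 2-fold. The Lig4 intron at -3.51 and the Rag2 element at -2.93 lie farthest to the left.

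Between Wt and Ebf1-KO cells the marks differed by region, also within a gene. The Rag2 element carried more of every active mark and more RNA polymerase II (PolII) in Wt. PolII was higher in Wt at nearly all member regions. The Lig4 promoter carried less H3K4 methylation in Wt, by less than 2-fold on the unscaled values. The Rag2 element, the Dntt upstream region, the region 1159 bp before Rag1 and the Lig4 intron were listed by the authors as open in Wt and not in Ebf1-KO, a class of 785 of 3764 regions. The Rag1 and Lig4 promoters, the Dntt intron and the weaker Rag2 region were listed as open in both. The class open in Wt only, outside promoters, thus held 4 of 8 member regions and 20.9% of all regions. The shares of all regions called for each mark and PolII below pool all classes. Shares within a class were not computed, so the member counts are not compared with their like.

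For H3K4me2, a mark of promoters and enhancers, 4 of 8 member regions were called higher in Wt and 0 lower, where 30.5% and 7.44% of all regions were. The Rag2 element held 36.4 (30.8–42.8) tags in Wt and 10.1 (7.26–13.6) in Ebf1-KO, 3.62-fold (2.55–5.22) higher in Wt. The Dntt intron held 38.4 and 14.9, 2.58-fold (1.91–3.52) higher, and the Dntt upstream region 10.5 and 3.12, 3.35-fold (1.77–6.79) higher. At the Rag1 promoter the order was the opposite, with 20.4 (16.3–25.3) in Wt and 33.1 (27.8–39.1) in Ebf1-KO, 1.62-fold (1.23–2.15) higher in Ebf1-KO. The Lig4 promoter too held less in Wt, 13.4 (10.1–17.4) against 25.4 (20.8–30.7), and was called lower under TMM (log2 -1.03). The Lig4 intron held 11.9 and 12.95, within counting error, and the weaker Rag2 region 3.4 and 0.96, 3.55-fold (1.11–14.8) higher in Wt.

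For H3K4me3, the mark of active promoters, 4 of 8 were called higher in Wt and 0 lower, where 25.3% and 15.5% of all regions were. The Rag2 element held 18.0 (15.1–21.3) tags in Wt and 2.86 (2.16–3.71) in Ebf1-KO, 6.31-fold (4.59–8.76) higher. The Dntt upstream region held 8.61 and 1.17, 7.34-fold (4.51–12.4) higher, and the region 1159 bp before Rag1 6 and 0.82, 7.36-fold (4.09–13.9) higher. The Dntt intron held 34.1 (30.1–38.5) and 16.5 (14.7–18.4), at a log2 ratio of 1.00 just inside the threshold. The Rag1 promoter held 51.3 (46.3–56.6) and 39.6 (36.9–42.5), a difference beyond counting error but below 2-fold. At Lig4 both regions held less in Wt, 127 (120–136) against 199 (193–206) at the promoter and 21.8 (18.6–25.4) against 32.2 (29.8–34.9) in the intron.

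For H3K27ac, the mark of active enhancers and promoters measured by CUT&RUN, 3 of 8 were called higher in Wt and 0 lower, where 37.3% and 1.14% of all regions were, and the median log2 ratio of all regions was 0.69. The Rag2 element held 57.6 (48.5–67.9) tags in Wt and 10.4 (6.89–15.0) in Ebf1-KO, 5.56-fold (3.69–8.66) higher. The Lig4 intron held 17.5 (12.7–23.6) and 1.67 (0.50–4.06), 10.5-fold (4.01–36.7) higher, the largest H3K27ac ratio of the 8 regions and above that of 95.4% of all regions. This same intron did not differ in H3K4me2 beyond counting error and held less H3K4me3 in Wt. The Lig4 promoter held 16.3 and 18.5, the Dntt intron 23 and 21.1, and the Dntt upstream region 14.9 and 15.9, none beyond counting error, and relative to the median all 3 lay below it (log2 -0.87, -0.58 and -0.79). The Rag1 promoter held 23.8 and 15.4, a log2 ratio of 0.60 that turned to -0.13 under TMM. The last of the 3 called, the region 1159 bp before Rag1 with 4.07 and 1.48 tags, was within counting error at 2.75-fold (0.793–12) and was not called under TMM.

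For PolII, 7 of 8 were called higher in Wt and 0 lower, where 40% and 7.04% of all regions were and the median log2 ratio was 0.68. The Dntt upstream region had the largest ratio, 42.1 (34.6–50.9) tags in Wt and 2.74 (1.18–5.39) in Ebf1-KO, 15.4-fold (7.54–36.6) higher and above the ratio of 96.6% of regions. The Lig4 intron held 34.7 (27.9–42.7) and 3.08 (1.41–5.84), 11.3-fold (5.68–25.5) higher. The Rag2 element held 56.2 (47.4–66.2) and 9.23 (6.09–13.4), 6.08-fold (4.01–9.55) higher, and the Dntt intron 22.2 and 4.10, 5.42-fold (2.88–11.1) higher. The Rag1 promoter held 26.5 (20.6–33.6) and 6.16 (3.65–9.73), 4.31-fold (2.53–7.70) higher, although it was open in both genotypes. The Lig4 promoter held 40.2 (32.8–48.7) and 12.3 (8.62–17.1), 3.26-fold (2.21–4.91) higher, and this call was lost under TMM (log2 0.93). The region 1159 bp before Rag1 held 2.73 tags in Wt and 0 in Ebf1-KO, at least 2.66-fold higher against a floor of 3 tags in the library. The weaker Rag2 region, at 5.46 and 4.79, was not called.

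H3K27me3, the mark of Polycomb repression, was low at all 8 regions, between 0 and 2.52 tags in either genotype. In this mark 2 of 8 were called higher in Wt and 0 lower, where 4.7% and 16.6% of all regions were. They were the Rag1 promoter, 1.79 against 0.26, 6.92-fold (1.55–63.4), and the weaker Rag2 region, 1.22 against 0.06. Both rest on under 3 tags in Ebf1-KO, and neither call stood with a pseudocount of 5. By the strongest region of each gene, 4 of 8 measured regulators of Rag transcription were called lower in Wt, where 22.4% of 1623 genes were. Among them was Lef1, with 2.01 tags in Wt and 90.1 in Ebf1-KO.

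**Figure D2:**
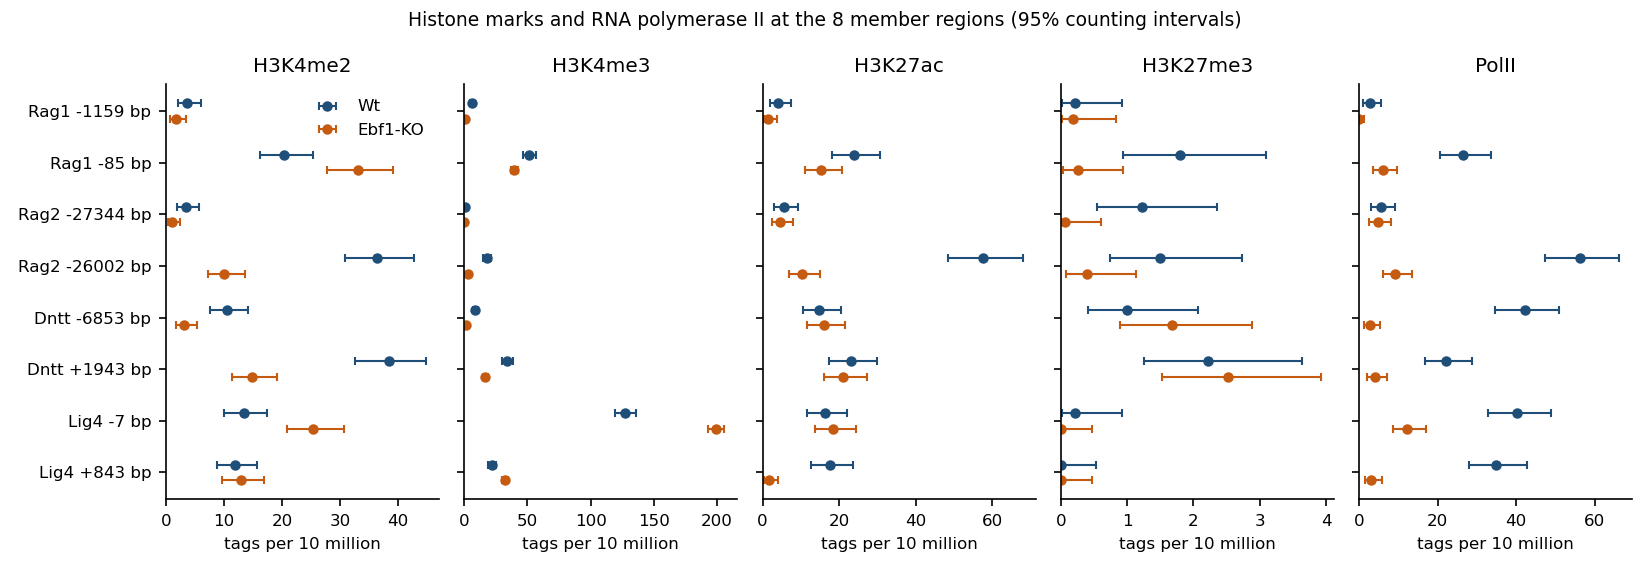
Tags per 10000000 with 95% counting intervals in Wt (blue) and Ebf1-KO (orange) for 4 histone marks and PolII at the 8 member regions, each panel on its own scale. The Rag2 element at -26002 bp is higher in Wt in H3K4me2, H3K4me3, H3K27ac and PolII, and the Lig4 intron at +843 bp in H3K27ac and PolII.

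Of the member regions 2 were Ebf1-bound, and both belonged to the 256 that were closed in Ebf1-KO rather than to the 916 that were open. The Rag2 element overlapped Ebf1 and Pax5 peaks of the line, and the Dntt upstream region, here chr19:41022083-41022676, an Ebf1 peak only. The shares of regions called for EP300, BRG1 and PolII below are over both classes together. Shares within the class closed in Ebf1-KO were not computed, so the 2 regions are not compared with their like. EP300, an acetyltransferase of enhancers, was called higher in Wt at 2 of 2, where 36.9% of all Ebf1-bound regions were and 11% were lower. At the Rag2 element it held 73.3 (65.2–82.0) tags in Wt and 7.83 (5.81–10.3) in Ebf1-KO, 9.35-fold (6.91–12.9) higher and above the ratio of 93.2% of regions. At the Dntt region it held 36.0 (30.5–42.3) and 10.8 (8.41–13.7), 3.33-fold (2.49–4.50) higher. The antibody label of the Wt EP300 sample names PolII with a question mark, so which protein that library measured is not settled. BRG1, the ATPase of the SWI/SNF remodeller, differed less. It held 26.7 (22.5–31.5) and 15.1 (11.8–19) at the Rag2 element, 1.77-fold (1.32–2.38), and 21.8 (18.0–26.1) and 10.3 (7.60–13.6) at the Dntt region, 2.12-fold (1.5–3.02). Of the 2 the Dntt region was called for BRG1, where 32.4% of regions were higher and 9.98% lower, and not under TMM. PolII, the same libraries as above, was called at 2 of 2 where 53% of these regions were higher and 3.5% lower, with 48.4 and 4.10 tags over the longer Dntt region.

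After 4OHT the Rag2 element held more tags at 72 h than at 0 h beyond counting error, a call that was lost relative to the median region, and the Dntt region did not differ beyond counting error. The intervals of their 72 h folds overlap, so the data do not show that the 2 regions responded differently. The Rag2 element held 5.92 (3.93–8.56), 6.91 (4.43–10.3), 7.92 (5.30–11.4) and 13.8 (10.2–18.3) tags at 0, 6, 24 and 72 h. The 72 h value was 2.34-fold (1.44–3.87) above 0 h, and the values at 6 and 24 h did not differ from 0 h beyond counting error. The Dntt region held 4.23 (2.58–6.53), 5.76 (3.52–8.90), 2.73 (1.31–5.02) and 4.61 (2.63–7.49) tags, none beyond counting error from 0 h, and its 72 h fold was 1.09 (0.528–2.21). So 1 of 2 was called higher at 72 h, where 18.2% of all 1172 regions were, and 0 of 2 at 6 or 24 h, where 5.97% and 16.1% were. All 3 comparisons share the 0 h column, and the deposited totals of the 6 and 72 h libraries were nearly equal, 34710011 and 34710016 tags, while their values differ. The median of all regions was itself 0.50 higher at 72 h on the log2 scale, and relative to it the Rag2 element stood at 0.60 and was not called, as under TMM. In the class closed in Ebf1-KO the median region went from 2.96 tags at 0 h to 4.61 at 72 h, and 61 of 256 were called.

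**Figure D3:**
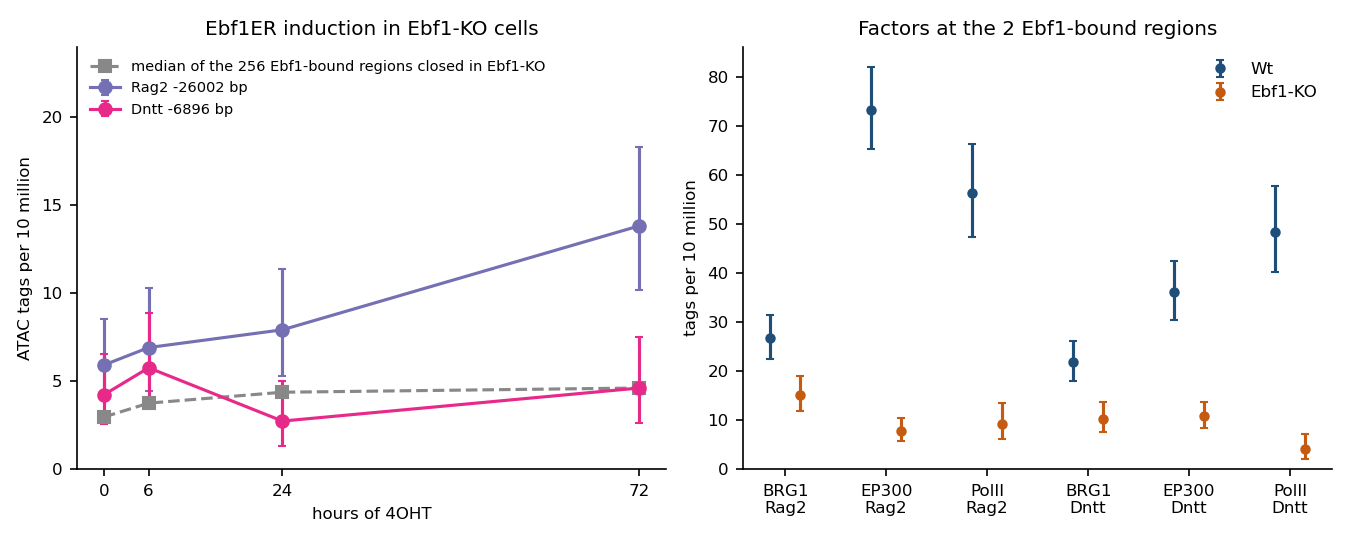
Left, ATAC tags per 10000000 with 95% counting intervals by hours of 4OHT at the Rag2 and Dntt Ebf1-bound regions, with the median of the 256 Ebf1-bound regions closed in Ebf1-KO (grey). Right, BRG1, EP300 and PolII in Wt (blue) and Ebf1-KO (orange) at both regions. The Rag2 element reaches 13.8 tags at 72 h, and the Dntt region stays between 2.73 and 5.76.

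Fli1, an ETS factor of blood progenitors, had peaks in Wt fetal liver cells at all 4 genes, 4 annotated to Rag2, 4 to Dntt, 2 to Lig4 and 1 to Rag1. Scores are the authors' own. The highest was 35.3 within the Rag2 element (chr2:101598740-101599092), above 89.8% of all Fli1 peaks. The Lig4 promoter peak (chr8:9976177-9976529) scored 31.9, and the peak over the Lig4 intron (chr8:9975226-9975578) scored 22.4. The Rag1 promoter peak (chr2:101649474-101649826) scored 19.1. At Dntt the upstream and intron 1 regions carried peaks of 18.6 and 16.2, and peaks of 24.3 in intron 3 and 14.3 at 13004 bp upstream lay outside the fetal liver regions. Near Rag2 others lay 24088, 3003 and 90942 bp upstream, with scores of 29.5, 23.8 and 10.5. Of the 10 fetal liver member regions 6 overlapped a Fli1 peak, against 37.0% of all 4983. These 6 held 11.7 to 90.7 ATAC tags in Wt and the other 4 held 1.37 to 9.56, and the 6 were also longer (260 to 992 bp against 170 to 255). In 230-238, 9 of the 24 accessible member regions overlapped a fetal liver Fli1 peak, against 32.0% of all.

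Ikzf1 (Ikaros), a zinc finger regulator of lymphoid genes, had no peak annotated to any of the 4 genes and none on the 24 accessible regions, where 7.57% of all 65093 had one. The nearest peak to the Rag genes (chr2:101665663-101665847) lay 12.5 kb from the region 3514 bp upstream of Rag1. With peaks from 1 library each, no peak called does not show that the factor was absent.

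The 24 accessible regions of 230-238 comprised 14 annotated to Rag2, 5 to Dntt, 3 to Rag1 and 2 to Lig4. Unlike in the fetal liver tables, the Rag2 start site was covered, by an accessible region at chr2:101624612-101624836. Other regions lay 24030, 8644 and 2902 bp upstream of Rag2, in introns of NM_026592, and the farthest 1872290 bp upstream. From the farthest Rag2 region to the last Rag1 region (chr2:99752028-101653165, 1901 kb) the list held 17 accessible regions, all annotated to Rag1 or Rag2. RefSeq placed start sites of 4 genes in that span, Gm39886, Iftap, Rag2 and Rag1, and the last 3 had an accessible region within 1 kb.

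Interactions came from PLAC-seq in 230-238, which joins contact mapping with an H3K4me3 pull-down and so favours contacts of active promoters. The list gives pairs of 5 kb bins with a contact count and a q-value from the authors, up to 0.05. The bin of the Rag2 element (chr2:101595001-101600000, which also holds the region 27344 bp upstream) contacted the bin of the Rag1 promoter (chr2:101645001-101650000) over 50 kb, with 25 contacts and q = 2.12e-08. Of the 1536 listed interactions at that distance 9.38% had a lower q, and their median count was also 25. The next bin, with the accessible region 24030 bp upstream, contacted the bin shared by the Rag2 and Iftap start sites (26 contacts, q = 0.00182). The median count at that distance was 39. This next bin also contacted the start of Traf6, a ubiquitin ligase of NF-κB signalling, with 21 contacts (q = 3.56e-05), where the median was also 21. No contact between the bin of the Rag2 element and that of the Rag2 start was listed as such. The merged extent of the contact between the next bin and the Rag2 start does reach over the bin of the Rag2 element. The bins of both promoters contacted each other with 21 contacts (q = 0.0259), where the median at that distance was 34. The bin of the Rag2 element contacted that of the Commd9 start 290 kb away with 8 contacts (q = 0.0439), where the median was 11. Rag1 thus had 2 interactions and Rag2 5, where the median over 16039 genes with an accessible region was 4. At q of 0.01, 1 remained for Rag1 and 3 for Rag2, and the contact between the promoters did not.

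**Figure D4:**
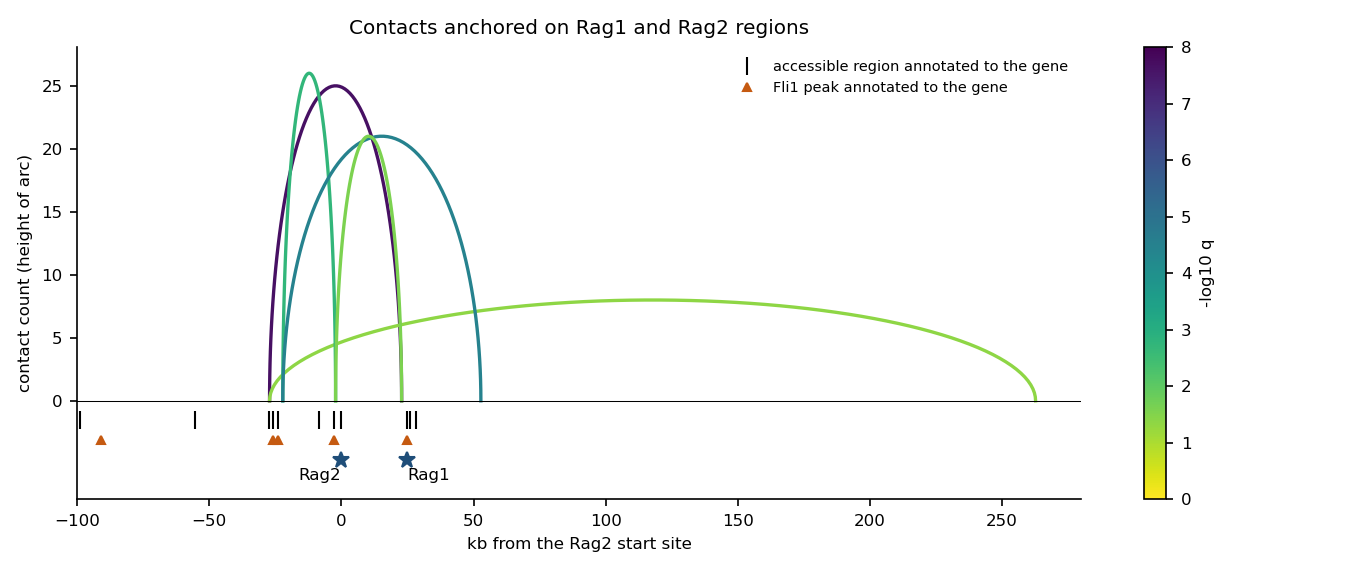
Interactions anchored on Rag1 and Rag2 regions in 230-238, as arcs between bin centres by distance from the Rag2 start site, with height for the contact count and colour for -log10 q. Ticks are accessible regions, triangles Fli1 peaks and stars start sites, and regions beyond 100 kb upstream are not drawn. The darkest arc, with 25 contacts, joins the bin of the Rag2 element and that of the Rag1 promoter.

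Dntt had 18 interactions, and 93.9% of genes had fewer. These counts per gene, as for the Rag genes above, were not adjusted for the number of accessible regions of a gene, 5 for Dntt. Intron 1 anchored 11, the upstream region 5 and the pair of accessible regions 9087 and 9959 bp after the start 3. The bin of the Dntt start site, which holds the accessible region 3208 bp upstream, anchored none as listed, although the merged extents of 2 of the intron 1 interactions reach over it. The upstream and intron 1 regions contacted each other over 10 kb with 51 contacts (q = 1.84e-05), where the median of listed interactions at that distance was 52. Of the other 17, 16 reached towards lower coordinates, upstream of Dntt, and 1 beyond it. Both regions contacted the bin of the start of Blnk, the adaptor that couples the pre-B-cell receptor to its kinases, with 48 contacts from intron 1 (q = 1.88e-04) and 39 from the upstream region (q = 6.3e-04). Other far ends held the starts of Ccnj, a cyclin gene (200 kb, 20 contacts, q = 4.15e-06), of Aldh18a1, an enzyme of proline synthesis (445 kb, 13 contacts, q = 1.88e-04), and of Zfp518a and Gm33482. Of the 17 far ends, 6 held a gene start, 6 an accessible region without one and 5 neither. At q of 0.01, 9 of the 18 remained.

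Of these far genes 3 had regions in the tables. The region 1409 bp upstream of Blnk (chr19:40995376-40996512), in the bin next to the contacted one, held 60.2 ATAC tags in Wt and 10.6 in E2A-KO, 89.0 H3K27ac tags in Wt and 21.8 in Ebf1-KO, and 62.0 PolII tags in Wt and 10.3 in Ebf1-KO. An Ebf1-bound region 14603 bp after the Blnk start (chr19:40979434-40980431) differed little in BRG1 (5.3 in Wt, 5.03 in Ebf1-KO) and EP300 (4.14, 4.39), and held 17.6 and 1.03 PolII tags. The region over the Zfp518a start, which overlaps a contacted bin, held 41.8 ATAC tags in Wt and 21.9 in E2A-KO, and 19.1 PolII tags in Wt and 9.58 in Ebf1-KO. The region 12234 bp upstream of Ccnj, in the bin contacted together with the Gm33482 start, had 20.3 ATAC tags in Wt and 29 in E2A-KO, and 31.6 PolII tags in Wt and 71.8 in Ebf1-KO. An Ebf1-bound region 21036 bp upstream of Ccnj went the other way in PolII, with 42.5 tags in Wt and 16.4 in Ebf1-KO.

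**Figure D5:**
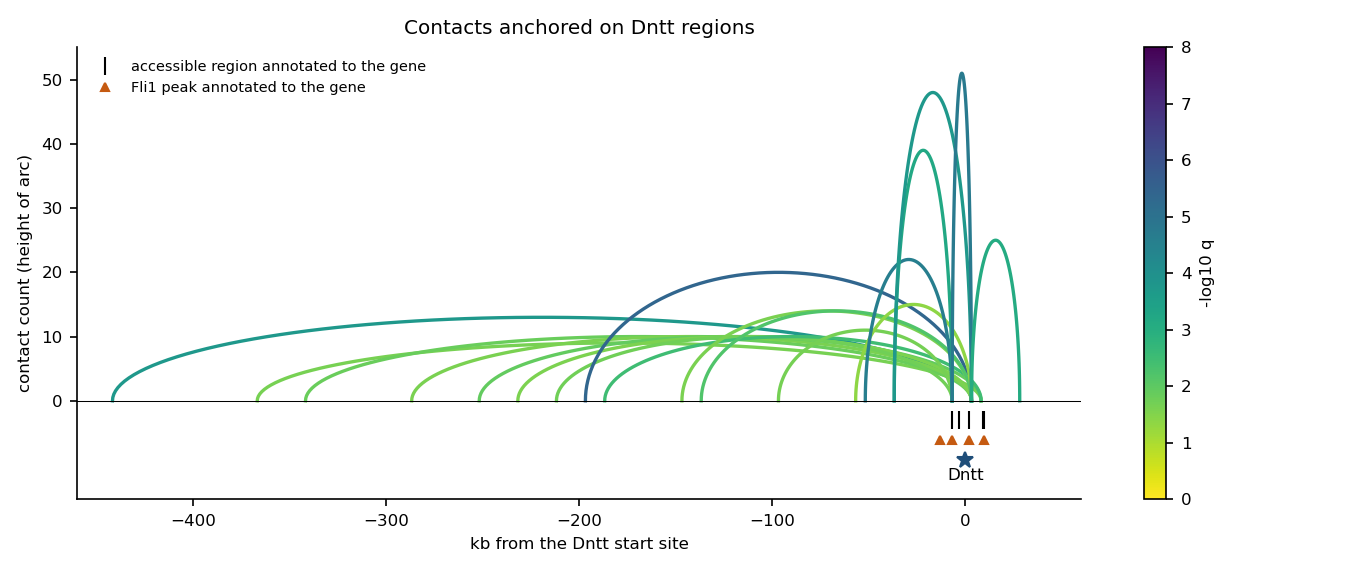
Interactions anchored on Dntt regions in 230-238, drawn as for the Rag genes but by distance from the Dntt start site. Most arcs reach upstream, and the highest join the upstream region with intron 1 (51 contacts) and intron 1 with the bin of the Blnk start (48 contacts).

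Lig4 had 1 interaction, between the bin of its promoter and intron, which also holds the start of the divergent gene Abhd13, and a bin 10 kb away without an accessible region (43 contacts, q = 0.0414). The median count of listed interactions at that distance was 52. At q of 0.01 none remained.

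Among the other genes of the pathway, only Hmgb1 and Hmgb2, DNA-bending cofactors of the recombinase, were measured of a list of 17 for end joining and repair. Each was called lower in E2A-KO at its promoter, with 65.3 tags against 134 in Wt for Hmgb1 and 87.1 against 185 for Hmgb2, but neither under TMM, and neither was called for PolII. In 230-238 the start sites of all 14 list members matched to RefSeq were accessible, where 39.4% of all RefSeq genes were. Of 18 listed regulators of Rag transcription 8 were measured, and 3 were called lower in E2A-KO, Ikzf3, Lef1 and Pax5, where 40.3% of all genes were by their strongest region. Under TMM the call of Ikzf3 was lost (log2 -0.31) and 2 of 8 were lower, where 272 of 1787 genes were. For PolII 7 of 8 were called higher in Wt, where 37.2% of genes were, with a median log2 ratio of 3.62 against 0.57 over all genes. Under TMM 5 of 8 were called, where 378 of 1623 genes were, and Irf4 (0.57) and Tcf3 (0.84) were not. The B progenitor markers share Ebf1 and Pax5 with the regulator list, and for PolII 8 of 9 of these markers were called higher in Wt, 7 under TMM. Foxo1, an activator of Rag transcription, held 124 PolII tags in Wt and 5.47 in Ebf1-KO at a region 175850 bp after its start. That region was also called higher at 72 h of 4OHT, with 44.7 ATAC tags against 13.7 at 0 h. Ebf1 itself was the exception for PolII, at a log2 ratio of 0.68. The median PolII log2 ratio of the 4 members by strongest region was 2.21.

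By distance over 5 log2 ratios (H3K4me3, H3K4me2, H3K27me3 and H3K27ac in Wt against Ebf1-KO, and ATAC in Wt against E2A-KO), each member's most accessible region was compared with those of 1623 genes. The gene nearest to the Rag2 element was Lhpp at 1.09, then 1700001D01Rik, 9530077C05Rik, Ifngr1 and Pdhb at 1.43, where the median gene stood 4.62 away. The Lig4 promoter was nearest to Cep250 at 0.27, then Egr1, Tmx1, Arl4a and Hmgb1 at 0.34, with a median of 1.94. The Dntt intron was nearest to Trim30d at 0.42, then Palm2, Lrmp, Smtn and Mir6906 at 0.75, with a median of 2.78. The Rag1 promoter was nearest to Tor3a at 0.73, then 8430423G03Rik, Smpdl3b, Vav3 and Hsd11b1 at 0.88, with a median of 2.33.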

How the data were processed

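The deposited tables give signal values that the authors scaled with HOMER to 10000000 tags per library, per the file headers, without dividing by region length. Tools named in the submitters' processing notes include Bowtie2 2.3.5, SAMtools 1.9, HOMER 4.10, HiC-Pro 2.11.1 and MACS2, and mm10 (GRCm38.p5). Value times library total gave whole tags, or multiples of 0.5 for H3K27me3 and H3K27ac, within 0.1 tag in all regions (100%). Peak scores, contact counts and the q-values of interactions, kept to 0.05, are the authors' deposited values. For 2 ATAC columns, Ebf1-KO and Pax5-KO, no labelled sample matches and neither was used. By its name, the Wt ATAC column pools more libraries than the 3 labelled Wt samples. The names of the Wt and E2A-KO columns also differ in processing. Removal of the mitochondrial chromosome is named for E2A-KO only, and a set size for Wt only. What this did to the ratios of E2A-KO to Wt was not tested.

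Here log2 ratios of value + 1, exact Poisson and exact conditional ratio intervals (SciPy 1.17.1), and TMM factors (edgeR 4.0.16) were computed, on code tested with simulated data. For H3K27me3 and H3K27ac, where recovered tags were not all whole, the same formulas were used, so those intervals are approximate. Each group was 1 column, so the planned limma tests across replicates were not made. Genes were matched to RefSeq start sites (GRCm38.p6) by symbol. Members, gene lists and the rule for named genes (all member rows, listed genes by the region of highest mean value, genes at far ends, and the 5 nearest by distance) were chosen with earlier results of these data known. Input, IgG and Ebf1-KO Fli1 and Ikzf1 libraries were not analysed here.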

Additional observations from a re-analysis of the deposited data

How the results depend on the processing

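No paired analysis was possible because each group of a table is a single column, and for the same reason the replicate block and leaving out a replicate were not run. Of the member regions, 3 were at least 2-fold lower in E2A-KO under TMM and also relative to the median region, against 6. At 72 h of 4OHT, 0 were called with a pseudocount of 5, under TMM or relative to the median, against 1. For H3K4me3, 2 were called higher in Wt with a pseudocount of 5 or only where the larger value reached 10 tags, and 1 was lower at a fold of 1.5. For H3K4me2, 2 were higher with a pseudocount of 5, 1 was lower under TMM or relative to the median, and 2 were lower at a fold of 1.5. For H3K27me3, 0 were higher with a pseudocount of 5. For BRG1, 0 were called with a pseudocount of 5, under TMM or relative to the median, and 2 at a fold of 1.5. Interactions numbered 12 at q of 0.01 and 4 from regions within 1 kb of a start site, against 24, since fewer pairs or regions were allowed. Merging the extent of each end, chosen after seeing the data, gave 25. Other causes were not tested, and the other 152 alternative counts stayed within 1.5 times. No called ratio changed sign. Depth limits regions under about 3 tags, where intervals span several-fold.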
